A study of Mus musculus with 12 samples.

Results

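The transcripts of 43 mouse genes that encode homeobox or paired-box transcription factors outside the Hox clusters were followed in cardiac precursors, the mesoderm-derived stage that precedes beating heart muscle in culture. The genes were taken by symbol from a table of 35856 rows and 12 RNA-seq libraries, and are ordered here by family. C57BL/6 mouse embryonic stem cells were aggregated for 48 h, reaggregated for 43 h and harvested after 32 h in monolayer to obtain these precursors. Each of 3 lines carried the plant protein Tir1 and an auxin-inducible degron (AID) on 1 subunit of Polycomb repressive complex 2 (PRC2). There were 6 groups of 2 libraries: SUZ12-AID, MTF2-AID and AID-JARID2 cells given 50 µM indole-3-acetic acid (auxin), and the untreated cells of the same lines. No untagged line was given auxin, each subunit had 1 line, and neither the start nor the length of treatment is in the labels. Effects of auxin or of the line can therefore not be told apart from loss of the subunit.

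Homeobox and paired-box factors bind DNA through a homeodomain or a paired domain and set the identity of tissues and body regions in the embryo. Many of their genes lie in CpG-rich regions that PRC2 marks with methylation of histone H3 at lysine 27 in stem cells, which keeps them silent until a lineage needs them. SUZ12 belongs to the core that all forms of the complex share, whereas MTF2 and JARID2 join separate forms of it as accessory proteins. In heart mesoderm, Irx genes act in chamber and conduction tissue, and Meis and Pbx proteins are DNA-binding partners of Hox and other factors.

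The values are TPM (reads scaled for transcript length and to the same total in each library), and they correspond to 10138920 to 17173072 assigned reads per library. Auxin was compared with no treatment on log2(TPM + 1) with limma, and a gene passed at an adjusted p under 0.05 (Benjamini-Hochberg over the 15663 genes that reached 1 TPM in 2 or more libraries). The median log2 difference between replicate libraries was 0.144 with auxin and 0.195 untreated in SUZ12-AID, against 0.0884 to 0.103 in the groups of the other lines. The SE of a gene's auxin effect is pooled over all 6 groups. It is the same in each line, so it does not show the wider spread in SUZ12-AID. The degron acts on protein, so the RNA of the targeted genes does not measure depletion. Suz12 had 106 and 109 TPM in auxin and 113 and 127 TPM in untreated SUZ12-AID libraries, Mtf2 had 25.96 and 24.7 TPM in auxin and 22.4 and 21.7 TPM in untreated MTF2-AID libraries, and neither passed. Jarid2 rose in AID-JARID2, with 104 and 113 TPM in auxin and 45.3 and 43.5 TPM in untreated libraries (log2 fold change 1.27, SE 0.12, adjusted p = 2.17e-05).

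Markers of cell types also moved with auxin. For comparison, 15.1% of all genes tested rose and 4.05% fell in SUZ12-AID. In AID-JARID2 19.5% rose and 17% fell, and in MTF2-AID 0.0638% passed. Of 12 cardiac precursor markers, 11 were tested. In AID-JARID2, 10 of them fell and 0 rose, and their summed level was 489.9 and 418 TPM in auxin and 2784 and 2701 TPM in untreated libraries. In SUZ12-AID, 5 rose and 1 (Hand1, most of the sum) fell, and the summed level was 1625 and 1540.0 TPM in auxin and 2629 and 2944 TPM in untreated libraries. All 6 pluripotency markers rose in AID-JARID2 (sum 2605 and 2612 TPM with auxin and 408 and 391 TPM untreated), as did 5 of 6 in SUZ12-AID (sum 250.5 and 307 TPM with auxin and 164 and 142 TPM untreated). All 4 tested neural markers, of 7 listed, rose in AID-JARID2 (sum 298 and 314 TPM with auxin and 71.3 and 68.8 TPM untreated). In SUZ12-AID 3 rose (sum 59.01 and 62.1 TPM with auxin and 36.6 and 39.5 TPM untreated). Most of the neural sum with auxin in AID-JARID2 was Nes (217 and 224.9 TPM). The 3 not tested, Sox1, Pax6 and Neurog2, stayed under 1 TPM in all 12 libraries. In SUZ12-AID 5 of 5 trophoblast, 4 of 5 endothelial, 3 of 5 contractile, 3 of 5 paraxial mesoderm, 3 of 4 intermediate mesoderm, 2 of 4 neural crest and 2 of 2 endoderm markers tested also rose, and 1 endothelial and 1 intermediate mesoderm marker fell. In AID-JARID2 the same lists had 2, 1, 0, 1, 3, 1 and 1 marker higher and 2, 1, 3, 2, 0, 1 and 0 lower. On lists this short, some of these counts lie near the shares over all genes. Of these lists, 1 trophoblast marker passed in MTF2-AID. The neural crest marker Tfap2b was at 0 in all 12 libraries. The part of these cell type markers in the changes below was not tested. In bulk samples, fewer cells of a type and less RNA per cell cannot be told apart.

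Levels of the 43 genes ranged widely. Pbx2 was highest by its median over the 12 libraries (105 TPM, range 81.8 to 127), followed by Tgif1 (61.95, 43.8 to 117), Meis3 (52.3, 24.5 to 57.5) and Pbx3 (45.7, 28.6 to 59.99). The ranges of Pbx2 and Tgif1 overlap, as do those of Tgif1, Meis3 and Pbx3, so the order of the 4 is not fixed. In auxin AID-JARID2 libraries, Tgif1 (117 and 110.2 TPM) lay above Pbx2 (86.3 and 81.8 TPM). A median of at least 5 TPM was reached by 17 genes, and 33 were above 0 in every library. At the other end, 9 stayed under 1 TPM in every library. After the filter 33 genes were tested, and the 10 below it were Pitx3, Dlx1, Dlx5, Pax2, Pax7, Pax8, Pax9, En2, Shox2 and Lhx9. Lmx1b reached 1 TPM in auxin SUZ12-AID alone and Dlx6 in auxin MTF2-AID alone. Lmx1b therefore had to be higher there to enter the test. Emx2 reached 1 TPM only in auxin replicate 2 of SUZ12-AID (1.615 TPM) and auxin replicate 2 of AID-JARID2 (1.211 TPM), and needed both to enter.

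**Figure D1:**
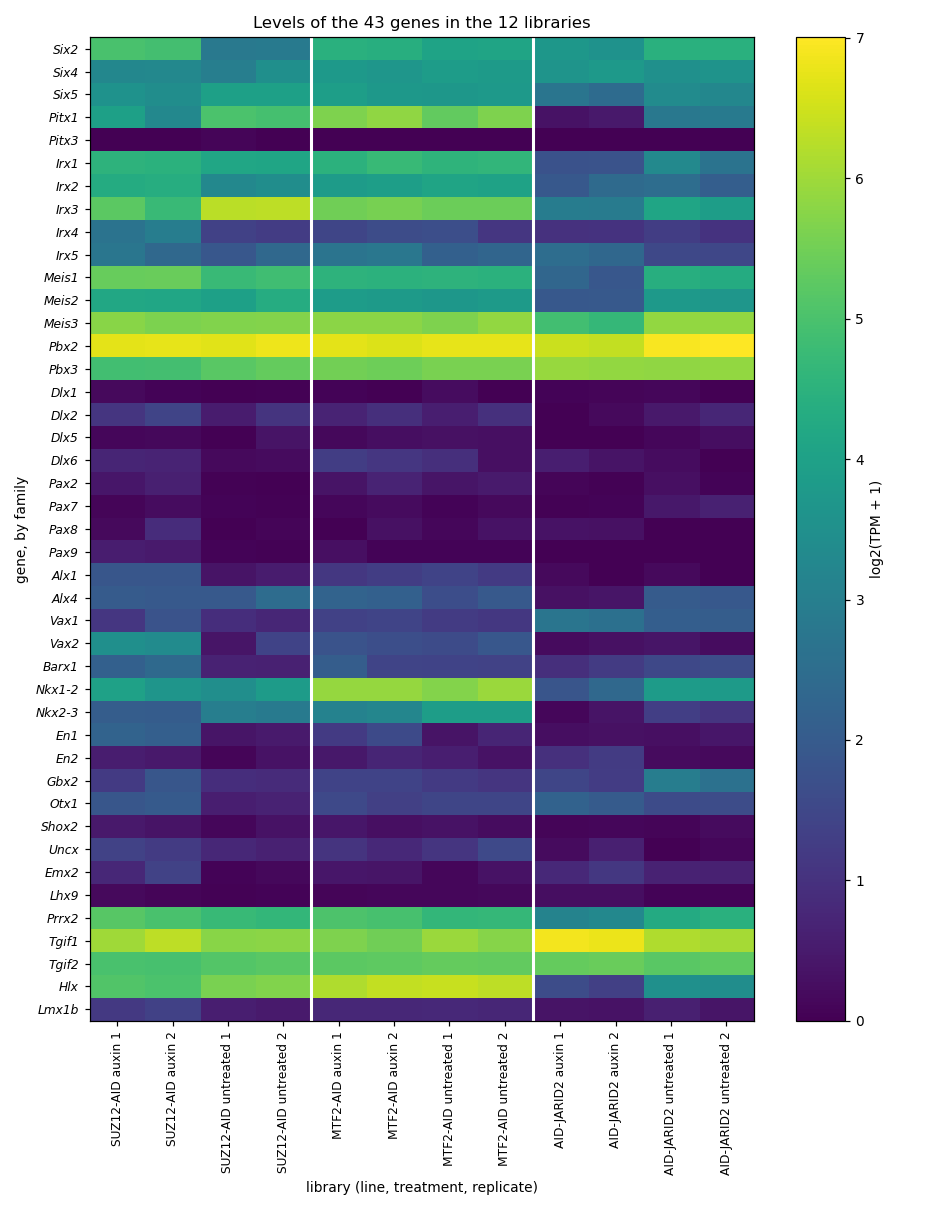
Level of each of the 43 genes (rows, by family) in each of the 12 libraries (columns, by line, auxin left of untreated), as log2(TPM + 1) by colour. Pbx2, Tgif1, Meis3 and Pbx3 are bright in every column, while Pitx3 and the Pax, Dlx1 and Dlx5 rows are dark throughout.

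In SUZ12-AID, 19 of the 33 genes passed (57.6%), where 19.1% of all genes tested did. Of these, 13 rose (39.4%, against 15.1% of all genes) and 6 fell (18.2%, against 4.05%). The set was chosen with earlier results of these data known. Shares set against all genes, here and below, are therefore not independent of that choice. The genes that rose were Six2, Vax2, Irx2, Irx4, Meis1, Barx1, Alx1, En1, Otx1, Emx2, Prrx2, Tgif1 and Lmx1b. The genes that fell were Six5, Pitx1, Irx3, Pbx3, Nkx2-3 and Hlx. Among them 7 rose at least 2-fold on the log2(TPM + 1) scale, as did 4.24% of all genes, and 2 fell that far, as did 0.255% of all genes. The median log2 fold change was 0.42 over the 33 genes and 0.06 over all genes. With quantile normalization, which put the median of all genes at -0.04, the split was 11 higher and 8 lower in place of 13 and 6. With a filter of 5 TPM, 22 of the genes were tested, and 7 were higher and 6 lower. Because SUZ12-AID replicates differed most, the calls were also made with a variance weight per line, which kept 11 of the 19, where 7.62% of all genes passed (Six2, Vax2, Pitx1, Irx3, Irx4, Pbx3, Barx1, Nkx2-3, Alx1, En1 and Otx1). A fit to the SUZ12-AID libraries alone kept 4 (Six2, Barx1, Alx1 and En1), where 0.996% of all genes passed.

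In AID-JARID2, 18 of the 33 genes passed (54.5%, against 36.5% of all genes), with the opposite balance. Here 3 rose (9.09%, against 19.5% of all genes) and 15 fell (45.5%, against 17%). Irx5, Otx1 and Tgif1 rose, and Six2, Six5, Pitx1, Irx1, Irx3, Meis1, Meis2, Meis3, Pbx2, Nkx1-2, Nkx2-3, Alx4, Gbx2, Prrx2 and Hlx fell. At least 2-fold falls numbered 11 (4.05% of all genes), and 0 genes passed in limma with a rise of that size (5.68% of all genes). The median log2 fold change was -0.48 over the 33 genes and 0.01 over all genes. Of the 18 calls, 17 held in each alternative in which the gene was tested, and Otx1 did not. Alx4, among the 17, was not tested with a filter of 5 TPM.

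In MTF2-AID, 0 of the 33 genes passed in limma, where 0.0638% of all genes did. At an unadjusted p under 0.05 there were 7 (Six2, Irx5, Dlx6, Nkx2-3, En1, Prrx2 and Tgif1), against 9.51% of all genes. With a variance weight per line (1.05% of all genes) or a pseudocount of 5 TPM (0.192%) 1 gene, Nkx2-3, passed. The median log2 fold change was 0.04 over the 33 genes and 0.01 over all genes. The largest estimates were En1 (log2 fold change 0.83, SE 0.20, adjusted p = 0.150) and Nkx2-3 (log2 fold change -0.74, SE 0.14, adjusted p = 0.0957). En1, a midbrain-hindbrain gene, had 1.28 and 1.97 TPM in auxin and 0.296 and 0.657 TPM in untreated libraries. Nkx2-3, which acts in spleen and gut mesenchyme, had 7.67 and 8.23 TPM in auxin and 13.9 and 13.96 TPM in untreated libraries. Neither pair of groups overlapped.

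Counted over all 43 genes, both auxin libraries lay above both untreated ones for 27 genes in SUZ12-AID and below for 7, and the groups overlapped for 9. In MTF2-AID the counts were 12 above, 9 below and 22 overlapping, and in AID-JARID2 13 above, 21 below and 9 overlapping. Among all genes tested the groups did not overlap for 49.3% in SUZ12-AID, 45.9% in MTF2-AID and 72.7% in AID-JARID2. These shares leave out genes below the filter, which the counts over the 43 include, and they join both directions.

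**Figure D2:**
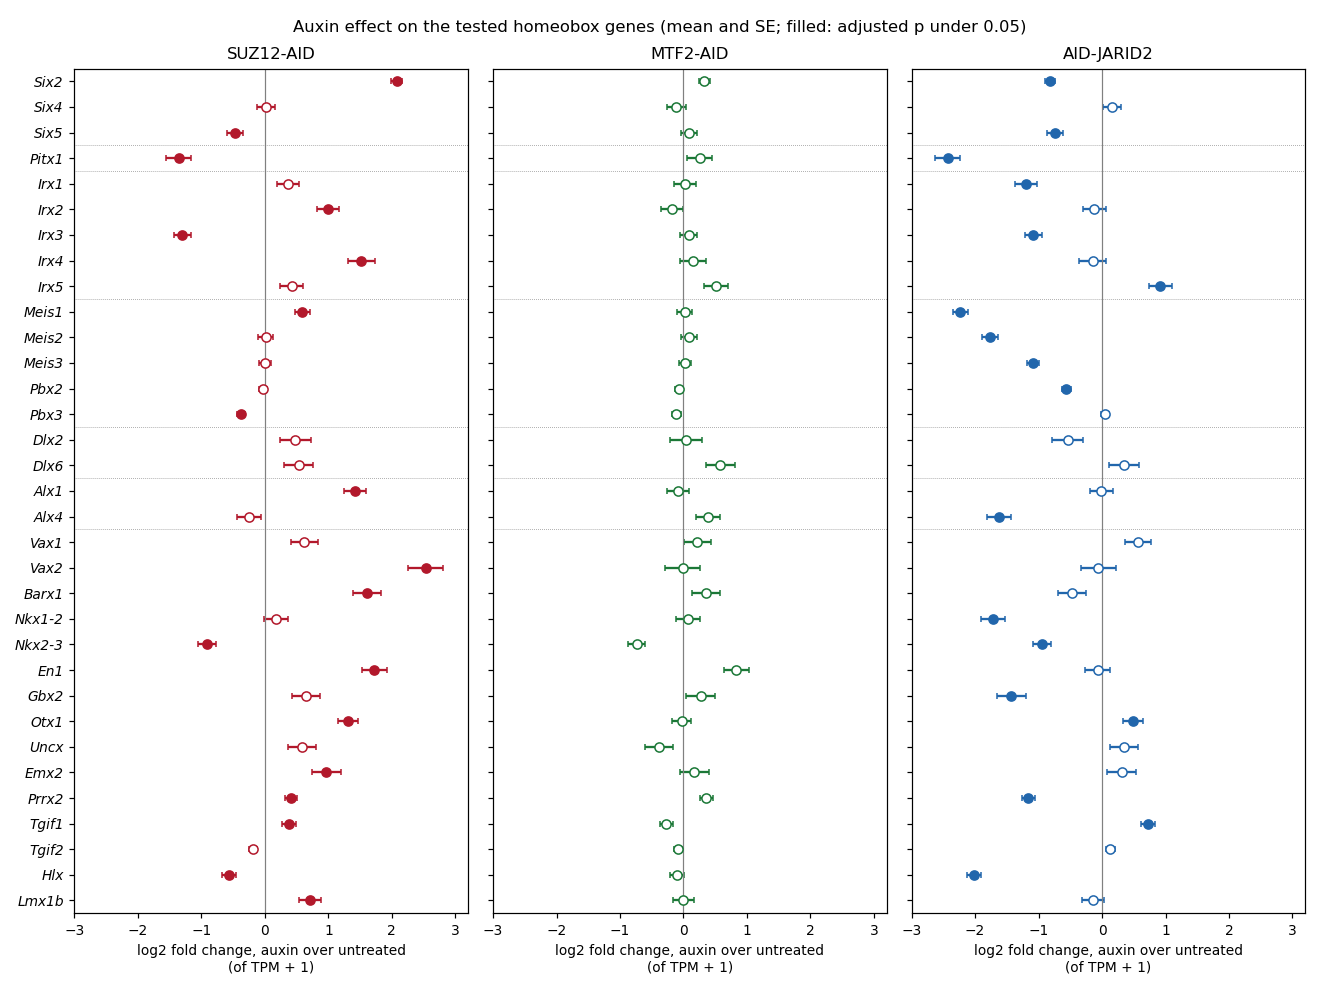
Log2 fold change of TPM + 1, auxin over untreated, for the 33 tested genes (rows, by family) in each line (panels). Points are estimates over 2 libraries per group, and filled points passed. Bars are ± 1 SE, pooled over all 6 groups and so the same for a gene in each panel. Filled points lie mostly right of 0 in SUZ12-AID (13 of 19) and left of 0 in AID-JARID2 (15 of 18), with none in MTF2-AID.

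Promoter sequence was available for 32 of the 43 genes in RefSeq (GRCm38.p6, 250 bases before to 50 after the start). It was not at hand for Vax2, Pitx1, Irx1, Irx5, Pbx3, Dlx5, Dlx6, Alx1, Alx4, En2 and Otx1. The 5 windows given here carry CG dinucleotides, a feature of promoters that PRC2 binds, in capitals. Six2 and En1 rose in SUZ12-AID, Irx3 and Hlx fell there and in AID-JARID2, and Meis1 rose in the SUZ12 line and fell in the JARID2 line.
Six2 (chr17:85688205-85688504, minus strand, 37 CG): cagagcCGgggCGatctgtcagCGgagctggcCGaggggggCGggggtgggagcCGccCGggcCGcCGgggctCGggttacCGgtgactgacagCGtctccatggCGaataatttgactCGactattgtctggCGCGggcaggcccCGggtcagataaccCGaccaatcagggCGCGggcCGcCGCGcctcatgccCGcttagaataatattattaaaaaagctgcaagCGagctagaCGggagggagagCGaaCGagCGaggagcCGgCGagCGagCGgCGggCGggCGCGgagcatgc
En1 (chr1:120602237-120602536, plus strand, 23 CG): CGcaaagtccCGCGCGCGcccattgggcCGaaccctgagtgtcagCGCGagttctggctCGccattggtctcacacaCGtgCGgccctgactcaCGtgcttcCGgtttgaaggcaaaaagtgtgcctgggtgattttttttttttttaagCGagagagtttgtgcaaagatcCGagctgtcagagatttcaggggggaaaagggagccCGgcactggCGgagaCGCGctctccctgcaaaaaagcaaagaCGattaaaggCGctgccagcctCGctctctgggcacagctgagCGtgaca
Irx3 (chr8:91801605-91801904, minus strand, 14 CG): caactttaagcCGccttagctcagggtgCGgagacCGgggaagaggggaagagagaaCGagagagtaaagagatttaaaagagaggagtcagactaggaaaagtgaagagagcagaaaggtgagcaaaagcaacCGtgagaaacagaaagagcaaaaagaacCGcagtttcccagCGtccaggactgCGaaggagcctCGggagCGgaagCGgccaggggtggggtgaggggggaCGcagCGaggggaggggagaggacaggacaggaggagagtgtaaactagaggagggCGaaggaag
Hlx (chr1:184732444-184732743, minus strand, 14 CG): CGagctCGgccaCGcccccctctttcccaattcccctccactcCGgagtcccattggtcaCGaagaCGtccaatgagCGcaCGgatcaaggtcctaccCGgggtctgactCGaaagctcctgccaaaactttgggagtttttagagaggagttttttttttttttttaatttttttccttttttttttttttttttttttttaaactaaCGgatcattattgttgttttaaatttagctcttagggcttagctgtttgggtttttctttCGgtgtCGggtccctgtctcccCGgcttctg
Meis1 (chr11:19018920-19019219, minus strand, 15 CG): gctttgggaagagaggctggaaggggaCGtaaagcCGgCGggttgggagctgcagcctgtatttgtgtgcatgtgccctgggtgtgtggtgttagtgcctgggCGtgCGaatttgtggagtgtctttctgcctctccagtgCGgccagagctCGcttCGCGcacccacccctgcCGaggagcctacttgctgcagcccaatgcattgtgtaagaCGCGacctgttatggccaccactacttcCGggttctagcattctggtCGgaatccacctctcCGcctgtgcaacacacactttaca
The Six2 window is the densest of the 5 and those of Irx3 and Hlx the least dense. The RefSeq start lay 413 bases from the GENCODE gene start for Irx3, 126 for Hlx, 69 for En1, 20 for Six2 and 16 for Meis1. Among the 32 genes it was furthest off for Prrx2 (10395 bases), Lhx9 (6133, with the lowest count of 6 CG) and Pax9 (3704). Not every window thus lies at the gene start given here. The median CG count was 21 over the 32 promoters (range 6 to 50), against 7 over all 32851 promoters of the table (quartiles 3 and 20). At least 20 CG were held by 19 of 32, against 26.5% of all promoters, but at least 30 by 3 of 32, against 11.7%. The letters GGGCGG, on either strand, were in 20 of 32, against 35.7% of all promoters. CCAAT was in 16 of 32, against 37.4%, and TATAAA in 2 of 32, against 13.6%. Genes that rose in SUZ12-AID had a median of 25.5 CG (10 promoters), those that fell 14.5 (4 promoters), and tested genes that did not pass 23 (10 promoters). These counts describe the windows and were not tested.

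Among the sine oculis-related genes, Six2 moved most and in opposite directions in the lines. Six2 (chromosome 17, 85684277 to 85688274, minus strand; mm10 here and below) keeps nephron progenitors undifferentiated and also marks progenitors of the cardiac outflow tract. It had 30.7 and 29.2 TPM in auxin and 6.16 and 6.45 TPM in untreated SUZ12-AID libraries (log2 fold change 2.08, SE 0.086, adjusted p = 6.11e-06). In AID-JARID2 it had 11.9 and 10.8 TPM in auxin and 20.8 and 20.7 TPM in untreated libraries (log2 fold change -0.82, SE 0.086, adjusted p = 5.04e-05). Auxin libraries lay above untreated ones in the SUZ12 line and below them in the JARID2 line, with no overlap. MTF2-AID had 20.9 and 19.9 TPM with auxin and 15.9 and 16.1 TPM untreated (log2 fold change 0.33, adjusted p = 0.191), also without overlap. The untreated level in SUZ12-AID was the lowest of the 6 groups. Six5 (range 4.43 to 14.9 TPM), a neighbour of the myotonic dystrophy kinase gene, fell in SUZ12-AID (log2 fold change -0.47, adjusted p = 0.0243) and in AID-JARID2 (-0.74, adjusted p = 0.00112). The SUZ12-AID call of Six5 was lost without auxin replicate 2, untreated replicate 1 or untreated replicate 2. Six4, which acts in muscle precursors, ranged over 7.03 to 13.7 TPM and passed in no line.

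The 5 Iroquois genes did not move together. They lie in 2 clusters, with Irx1, Irx2 and Irx4 on chromosome 13 (gaps of 665.1 and 626.3 kb) and Irx3 and Irx5 on chromosome 8 (gap of 555.6 kb). Irx4 (chromosome 13, 73260479 to 73269608, plus strand), a ventricular chamber factor, had 5.41 and 6.88 TPM in auxin and 1.56 and 1.39 TPM in untreated SUZ12-AID libraries (log2 fold change 1.52, SE 0.21, adjusted p = 0.000966). Its groups did not overlap there, and no library of the other lines exceeded 2.20 TPM. Its log2 fold change was 0.15 in MTF2-AID and -0.15 in AID-JARID2, and neither passed. Irx2 (range 2.82 to 19.7 TPM), expressed in septal and limb tissue, rose as well in SUZ12-AID (log2 fold change 0.99, SE 0.18, adjusted p = 0.00374). Irx2 did not pass in AID-JARID2 (log2 fold change -0.12, adjusted p = 0.664).

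Irx1 (chromosome 13, 71957921 to 71963723, minus strand), a septal and lung factor, instead fell in AID-JARID2. Its levels there were 2.41 and 2.44 TPM in auxin and 8.78 and 5.34 TPM in untreated libraries (log2 fold change -1.20, SE 0.17, adjusted p = 0.000398). In SUZ12-AID it had 22.1 and 21.4 TPM with auxin and 16.6 and 16.5 TPM untreated (log2 fold change 0.37, adjusted p = 0.175). Both lines had groups that did not overlap, in opposite directions, and the MTF2-AID libraries, at 21.4 and 25.5 TPM with auxin and 22.6 and 23.4 TPM untreated, overlapped.

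On chromosome 8, Irx3 and Irx5 differed. Irx3 (chromosome 8, 91798525 to 91802067, minus strand), needed for fast conduction in the ventricles, had 36.4 and 25.9 TPM in auxin and 76.4 and 77.8 TPM in untreated SUZ12-AID libraries (log2 fold change -1.30, SE 0.14, adjusted p = 0.000255). AID-JARID2 had 6.61 and 6.53 TPM with auxin and 16.2 and 13.8 TPM untreated (log2 fold change -1.08, SE 0.14, adjusted p = 0.000163). Irx3 thus fell without overlap in both lines, although the untreated JARID2 line began below the auxin libraries of the SUZ12 line. MTF2-AID had 43.6 and 46.1 TPM with auxin and 42.3 and 42.2 TPM untreated, which were 0.08 apart on the log2 scale. Irx5 (range 1.80 to 5.84 TPM), which shapes the ventricular repolarization gradient, rose in AID-JARID2 (log2 fold change 0.92, SE 0.18, adjusted p = 0.00301). In SUZ12-AID its log2 fold change was 0.42 (adjusted p = 0.153) and in MTF2-AID 0.51 (adjusted p = 0.395).

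Pitx1 (chromosome 13, 55825051 to 55836192, minus strand), which specifies hindlimb identity, fell in 2 lines. In SUZ12-AID it had 14.7 and 8.70 TPM in auxin and 31.4 and 29.9 TPM in untreated libraries (log2 fold change -1.36, SE 0.20, adjusted p = 0.00129). In AID-JARID2 it had 0.267 and 0.401 TPM with auxin, from 4 and 7 reads, and 6.00 and 6.32 TPM untreated, from 83 and 78 reads (log2 fold change -2.43, SE 0.20, adjusted p = 8.13e-06). The groups did not overlap in either line, and the AID-JARID2 value was the largest fall among the 33 genes on this scale. With pseudocounts of 0.1 and 5 TPM in place of 1 it was -3.87 and -1.06, and at 5 TPM Meis1 (-1.54), Hlx (-1.16), Meis2 (-1.13) and Nkx1-2 (-1.13) fell further in that line. MTF2-AID had 49.03 and 56.3 TPM with auxin and 39.3 and 48.9 TPM untreated (log2 fold change 0.26, adjusted p = 0.763), which did not overlap either. Pitx3, a gene of midbrain dopamine neurons and lens, had 1 read in all, in an untreated SUZ12-AID library.

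**Figure D3:**
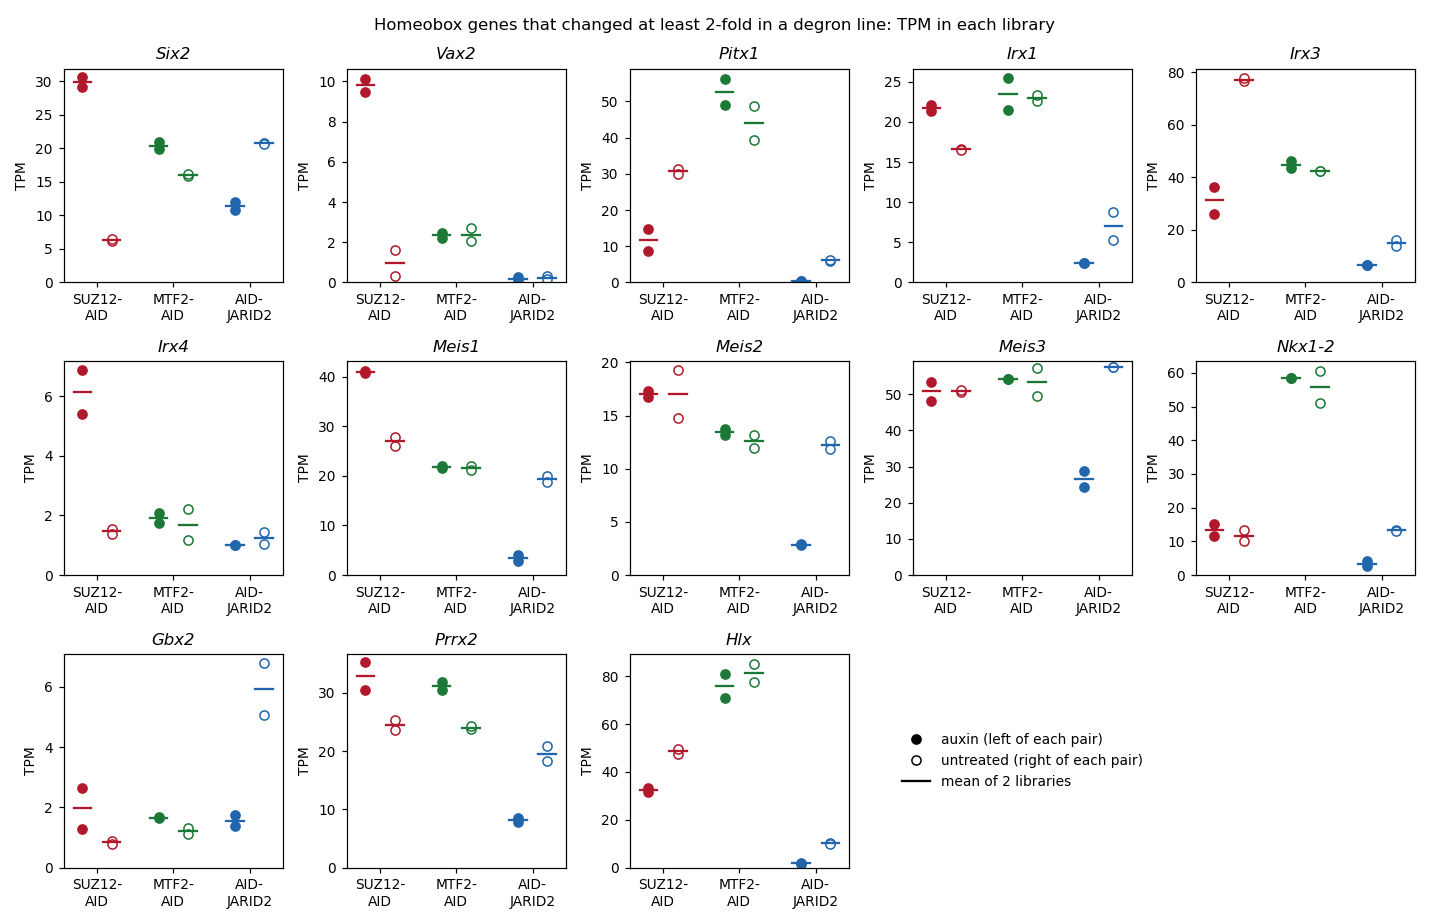
TPM of the 13 genes that passed with a change of at least 2-fold and whose higher group in that line averaged 5 TPM or more, in each library (auxin filled, left; untreated open, right; bar, mean of 2 libraries). Six2, Vax2 and Irx4 stand highest in auxin SUZ12-AID, and Meis1, Meis2, Pitx1 and Hlx are lowest in auxin AID-JARID2.

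The Meis genes, whose products pair with Hox and Pbx proteins on DNA, were lower throughout in auxin AID-JARID2. Meis1 (chromosome 11, 18879817 to 19018985, minus strand), which also restrains cell division in postnatal heart muscle, had 3.98 and 2.75 TPM in auxin and 19.9 and 18.8 TPM in untreated AID-JARID2 libraries (log2 fold change -2.23, SE 0.12, adjusted p = 4.91e-07). In SUZ12-AID the level was 40.7 and 41.2 TPM with auxin and 25.97 and 27.9 TPM untreated (log2 fold change 0.59, SE 0.12, adjusted p = 0.00796). Meis1 therefore rose in one line and fell in the other with no overlap in either, but its SUZ12-AID call was lost without auxin replicate 2. MTF2-AID stood at 21.96 and 21.6 TPM with auxin and 21.9 and 21.1 TPM untreated, and these overlapped.

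Meis2 (chromosome 2, 115863064 to 116065839, minus strand), needed in outflow tract and cranial neural crest, had 2.84 and 2.91 TPM in auxin and 12.6 and 11.8 TPM in untreated AID-JARID2 libraries (log2 fold change -1.77, SE 0.12, adjusted p = 3.03e-06). The other lines had overlapping groups, with 17.4 and 16.7 TPM in auxin and 14.8 and 19.3 TPM in untreated SUZ12-AID and 13.7 and 13.1 TPM in auxin and 11.9 and 13.2 TPM in untreated MTF2-AID libraries. Meis3 (chromosome 7, 16175090 to 16186504, plus strand), a hindbrain and pancreatic family member, had 28.7 and 24.5 TPM in auxin and 57.5 and 57.4 TPM in untreated AID-JARID2 libraries (log2 fold change -1.09, SE 0.093, adjusted p = 1.21e-05). All 3 Meis genes were thus at their lowest in those auxin libraries. In SUZ12-AID, Meis3 had 53.5 and 48.1 TPM with auxin and 50.5 and 51.03 TPM untreated, and in MTF2-AID 54.3 and 54.2 TPM with auxin and 49.4 and 57.2 TPM untreated.

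Of the Pbx genes, which encode partners of Hox and Meis proteins, Pbx2 (range 81.8 to 127 TPM) fell in AID-JARID2 (log2 fold change -0.56, SE 0.064, adjusted p = 8.72e-05) and Pbx3 (range 28.6 to 59.99 TPM) fell in SUZ12-AID (log2 fold change -0.38, SE 0.066, adjusted p = 0.00347). Pbx2 had a log2 fold change of -0.03 in SUZ12-AID and Pbx3 of 0.05 in AID-JARID2, and neither passed there. Both falls were under 1.5-fold in mean TPM, a small change in abundant transcripts.

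The 2 Alx genes, which act in craniofacial mesenchyme, moved in different lines. Alx1 (range 0 to 2.67 TPM) rose in SUZ12-AID (log2 fold change 1.42, SE 0.18, adjusted p = 0.000573), with 43 and 33 reads in auxin and 6 and 8 reads in untreated libraries. In AID-JARID2 it had at most 2 reads in any library. Alx4 (range 0.239 to 4.61 TPM) fell in AID-JARID2 (log2 fold change -1.62, SE 0.19, adjusted p = 0.000103), with 7 and 11 reads in auxin and 82 and 68 reads in untreated libraries. Its log2 fold change in SUZ12-AID was -0.25 (adjusted p = 0.424). Alx4 overlaps Ext2 on the opposite strand, a gene at 58.2 to 85.7 TPM, and whether reads were counted by strand is not stated.

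The 4 Dlx genes, known for forebrain interneurons and the pharyngeal arches, lie in the pairs Dlx1 and Dlx2 on chromosome 2 (gap of 9.4 kb) and Dlx5 and Dlx6 on chromosome 6 (gap of 9.2 kb). They stayed low. Dlx2 (0 to 1.73 TPM) and Dlx6 (0 to 1.43 TPM) were tested and passed in no line. Dlx1 and Dlx5 did not exceed 0.289 TPM. The log2 fold change of Dlx2 was 0.48 in SUZ12-AID (adjusted p = 0.225) and -0.54 in AID-JARID2 (adjusted p = 0.123).

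The 4 Pax genes, with roles in kidney (Pax2), neural tube and muscle (Pax7), thyroid (Pax8) and thymus and teeth (Pax9), were below the filter. In SUZ12-AID both auxin libraries lay above both untreated ones for each. Pax2 had 9 and 11 reads in auxin and 1 and 0 reads in untreated libraries there. For Pax9 the reads were 14 and 9 with auxin and 2 and 1 untreated, and for Pax8 2 and 10 with auxin and 0 and 1 untreated. Pax7 had only 2 and 4 reads with auxin and 2 and 1 reads untreated. None exceeded 0.868 TPM. When genes of any level were tested, Pax2 and Pax9 passed as higher in SUZ12-AID. In AID-JARID2, Pax7 then passed as lower, and En2 (log2 fold change 0.9) and Lhx9 (0.2) passed as higher. En2 had 19 and 31 reads in auxin and 3 and 2 reads in untreated AID-JARID2 libraries. Pax7 had 0.0331 and 0.0570 TPM in auxin and 0.359 and 0.564 TPM in untreated AID-JARID2 libraries.

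Of the remaining genes, Vax2 (chromosome 6, 83711264 to 83738313, plus strand), which patterns the ventral eye, had the largest rise. In SUZ12-AID it had 10.1 and 9.49 TPM in auxin and 0.329 and 1.63 TPM in untreated libraries (log2 fold change 2.53, SE 0.27, adjusted p = 0.000297), from 73 and 52 reads with auxin and 3 and 13 reads untreated. The groups did not overlap, and the untreated libraries differed from each other more than the auxin ones did. MTF2-AID had 2.48 and 2.21 TPM with auxin and 2.04 and 2.72 TPM untreated, and AID-JARID2 had 0.144 and 0.248 TPM with auxin and 0.312 and 0.175 TPM untreated. Both overlapped. Its paralog Vax1 (range 0.684 to 5.60 TPM) had log2 fold changes of 0.62 in SUZ12-AID (adjusted p = 0.0665) and 0.57 in AID-JARID2 (adjusted p = 0.0572).

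En1, Otx1, Emx2 and Lmx1b rose in SUZ12-AID from low levels. En1 (range 0.208 to 3.69 TPM) rose there (log2 fold change 1.72, SE 0.20, adjusted p = 0.000379), with 55 and 38 reads in auxin and 6 and 7 reads in untreated libraries. Otx1, a forebrain gene (range 0.491 to 3.62 TPM), rose in SUZ12-AID (log2 fold change 1.31, SE 0.15, adjusted p = 0.000421) and in AID-JARID2 (log2 fold change 0.49, SE 0.15, adjusted p = 0.0282). The AID-JARID2 call of Otx1 was lost when any 1 of that line's 4 libraries was left out. Emx2, a gene of cortex and urogenital tract (range 0.0510 to 1.61 TPM), rose in SUZ12-AID (log2 fold change 0.97, adjusted p = 0.0161), a call lost without auxin replicate 2 or untreated replicate 1. With pseudocounts of 0.1 and 5 TPM its value was 2.70 and 0.27. Lmx1b, which sets dorsal limb and hindbrain fates (range 0.278 to 1.56 TPM), rose there too (log2 fold change 0.71, adjusted p = 0.0164). Its call was lost without auxin replicate 2, without untreated replicate 2 and with quantile normalization, where it was 0.44.

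Gbx2 (chromosome 1, 89927956 to 89931179, minus strand), a factor of anterior hindbrain and of early embryonic cells, fell in AID-JARID2. It had 1.75 and 1.36 TPM in auxin and 6.79 and 5.08 TPM in untreated libraries (log2 fold change -1.43, SE 0.23, adjusted p = 0.000709). In SUZ12-AID it had 1.29 and 2.65 TPM with auxin and 0.889 and 0.801 TPM untreated (log2 fold change 0.65, adjusted p = 0.0746). Groups were apart in both lines, in opposite directions, and in MTF2-AID, at 1.65 and 1.67 TPM with auxin and 1.30 and 1.13 TPM untreated, they were apart as well.

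The Nkx genes fell where they passed. Nkx1-2 (chromosome 7, 132594878 to 132599637, minus strand), a marker of the caudal epiblast, had 2.61 and 4.17 TPM in auxin and 13.4 and 13.2 TPM in untreated AID-JARID2 libraries (log2 fold change -1.72, SE 0.19, adjusted p = 6.71e-05). SUZ12-AID had 15.02 and 11.6 TPM with auxin and 10.01 and 13.4 TPM untreated, and MTF2-AID had 58.4 and 58.5 TPM with auxin and 50.95 and 60.6 TPM untreated. These groups overlapped within each line, while MTF2-AID stood well above the other lines. Nkx1-2 overlaps Fgfr2 on the same strand, so their reads may be shared. Nkx2-3 (range 0.0840 to 13.96 TPM) fell in SUZ12-AID (log2 fold change -0.91, SE 0.14, adjusted p = 0.00188) and AID-JARID2 (log2 fold change -0.95, SE 0.14, adjusted p = 0.000496). These values depend on the pseudocount. With 0.1 and 5 TPM the value was -1.08 and -0.53 in SUZ12-AID and -2.37 and -0.28 in AID-JARID2, and the mean TPM was 2.16-fold lower with auxin in SUZ12-AID and 6.92-fold lower in AID-JARID2. Both auxin libraries lay below both untreated ones in all 3 lines.

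Among mesenchymal genes, Hlx (chromosome 1, 184727140 to 184732619, minus strand), a factor of gut and liver mesenchyme, fell in 2 lines. It had 2.06 and 1.49 TPM in auxin and 10.4 and 9.84 TPM in untreated AID-JARID2 libraries (log2 fold change -2.01, SE 0.11, adjusted p = 5.25e-07). In SUZ12-AID it had 33.4 and 31.7 TPM with auxin and 47.4 and 49.8 TPM untreated (log2 fold change -0.56, SE 0.11, adjusted p = 0.00623). Groups were apart in both, but the SUZ12-AID call was lost without auxin replicate 2. MTF2-AID had the highest levels, 71.1 and 80.9 TPM with auxin and 85.2 and 77.5 TPM untreated, and these overlapped.

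Prrx2 (chromosome 2, 30834972 to 30881251, plus strand), a paired-related gene of limb and craniofacial mesenchyme, had 7.84 and 8.61 TPM in auxin and 18.3 and 20.8 TPM in untreated AID-JARID2 libraries (log2 fold change -1.16, SE 0.099, adjusted p = 1.21e-05). In SUZ12-AID the values were 35.4 and 30.6 TPM with auxin and 25.3 and 23.7 TPM untreated (log2 fold change 0.41, SE 0.099, adjusted p = 0.0170). This rise was lost without auxin replicate 1 or untreated replicate 2, and with median-of-ratios scaling or quantile normalization. In MTF2-AID, Prrx2 had 31.96 and 30.4 TPM with auxin and 23.8 and 24.3 TPM untreated (log2 fold change 0.36, adjusted p = 0.220). Prrx2 groups were apart in all 3 lines. Barx1, a gene of stomach and arch mesenchyme (range 0.569 to 4.30 TPM), rose in SUZ12-AID (log2 fold change 1.61, SE 0.22, adjusted p = 0.000965) and had a log2 fold change of -0.48 in AID-JARID2 (adjusted p = 0.122). Uncx, a somite gene (range 0 to 1.93 TPM), passed in no line.

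Tgif1 and Tgif2, which encode repressors of TGF-beta signalling and are among the abundant genes of the set, differed. Tgif1 (range 43.8 to 117 TPM) rose in AID-JARID2 (log2 fold change 0.72, SE 0.11, adjusted p = 0.000519) and in SUZ12-AID (log2 fold change 0.38, SE 0.11, adjusted p = 0.0331). The SUZ12-AID call was lost without auxin replicate 2 (log2 fold change 0.24), without either untreated replicate of that line and without either auxin replicate of AID-JARID2, with median-of-ratios scaling and with no filter. Tgif2 (range 30.02 to 41.03 TPM) passed in no line. Below the filter were Shox2, a pacemaker gene of the sinus node (up to 0.397 TPM), the midbrain-hindbrain gene En2 (up to 1.34 TPM) and the gonad gene Lhx9 (up to 0.206 TPM).

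The lines were then compared with each other. By a moderated F test, the auxin effect differed among the 3 lines for 24 of 33 genes, against 31.5% of all genes. AID-JARID2 and SUZ12-AID differed for 22, against 24% of all genes. The effect was lower in AID-JARID2 for 20 of these (15% of all genes) and higher for 2, Pbx3 and Tgif2 (9% of all genes). The largest differences, AID-JARID2 minus SUZ12-AID on the log2 scale, were Six2 (-2.90, SE 0.12, adjusted p = 3.57e-07), Meis1 (-2.82, SE 0.17, adjusted p = 3.33e-06) and Vax2 (-2.59, SE 0.39, adjusted p = 0.00106). AID-JARID2 and MTF2-AID differed for 16 genes, against 24.3% of all genes, led by Pitx1 (-2.68, SE 0.28, adjusted p = 8.71e-05). Of these, 15 were lower in AID-JARID2 (11.7% of all genes) and 1, Tgif1, was higher (12.6%). MTF2-AID and SUZ12-AID differed for 10, against 11.1% of all genes. The effect was lower in MTF2-AID for 8 (9.11% of all genes) and higher for 2, Pitx1 and Irx3 (2% of all genes). This count was 6 without SUZ12-AID auxin replicate 2.

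Each line had its own untreated libraries, and 10 of the 33 genes passed in both SUZ12-AID and AID-JARID2, against 10.8% of all genes. Of these, 7 moved the same way (8.27% of all genes): Otx1 and Tgif1 rose, and Six5, Pitx1, Irx3, Nkx2-3 and Hlx fell. Opposite directions were taken by 3, Six2, Meis1 and Prrx2 (2.52% of all genes). With 19 and 18 of 33 called in the lines, the count shared says nothing by itself about a link between them. A further 9 passed in SUZ12-AID and missed in AID-JARID2, 8 did the reverse, and 6 (Six4, Vax1, Dlx2, Dlx6, Uncx and Tgif2) passed in no line. Of the 9, the difference between the lines passed for Vax2, Irx2, Irx4, Pbx3, Barx1, Alx1, En1 and Lmx1b, and not for Emx2 (-0.65, SE 0.33, adjusted p = 0.184). Of the 8, it passed for Irx1, Meis2, Meis3, Pbx2, Nkx1-2, Alx4 and Gbx2, and not for Irx5 (0.51, SE 0.26, adjusted p = 0.194).

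**Figure D4:**
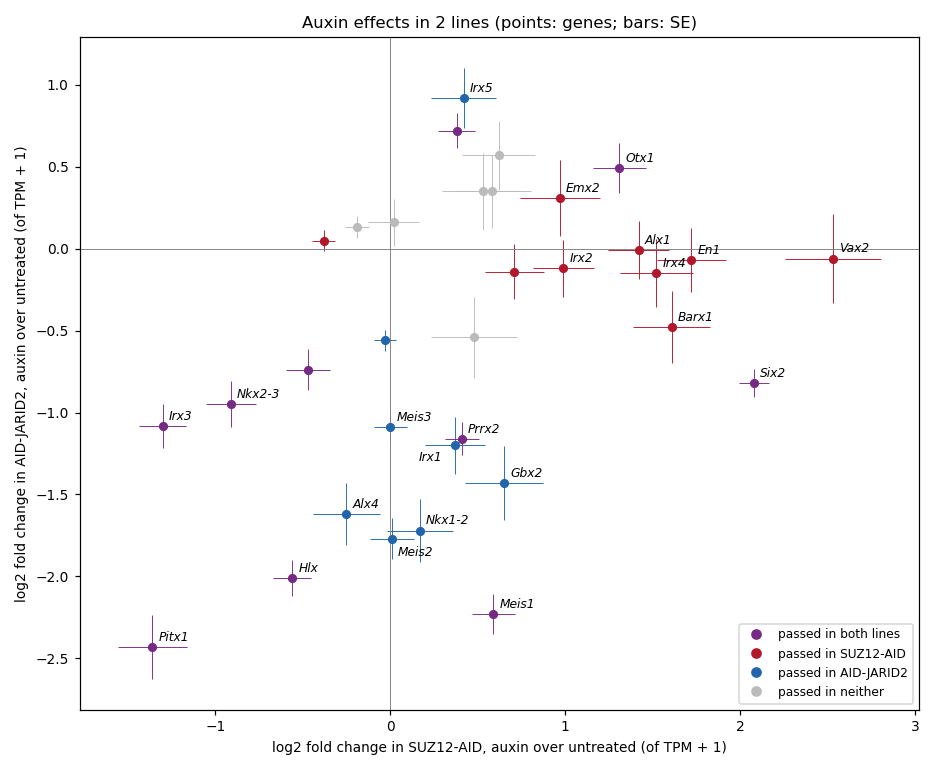
Log2 fold change of TPM + 1, auxin over untreated, in SUZ12-AID (horizontal) and AID-JARID2 (vertical) for the 33 tested genes. Bars are ± 1 SE, pooled over all groups and so the same for a gene in both lines. Colours show in which line a gene passed. Six2, Meis1 and Prrx2 lie right of 0 and below 0, and Pitx1, Irx3 and Hlx lie left of 0 and below 0.

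The genes were also split by their untreated level. That level comes from the same libraries that enter the fold change, so level and change are not independent. Of 12 genes under 1 TPM in untreated SUZ12-AID cells, 7 rose and 0 fell (Vax2, Barx1, Alx1, En1, Otx1, Emx2 and Lmx1b), where 21.5% of all such genes rose. Of 21 at or above 1 TPM, 6 rose and 6 fell, against 14.2% and 4.58% of all such genes. A gene under 1 TPM cannot fall by 1 on the log2(TPM + 1) scale. Lmx1b, among the 7 that rose, had to be higher with auxin to enter the test. Emx2, also among them, entered only through 1 auxin library of SUZ12-AID and 1 of AID-JARID2. In AID-JARID2, 0 of 8 genes under 1 TPM untreated passed in limma, and 0 had an unadjusted p under 0.05, where 23.1% of all such genes rose. Of the 25 at or above 1 TPM, 3 rose and 15 fell, against 18.9% and 19.3% of all such genes.

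The untreated lines differed too, by the F test for 22 of 33 genes, against 36.4% of all genes. Untreated AID-JARID2 differed from untreated SUZ12-AID for 19, against 27.6% of all genes. Of these, 8 were higher (15.2% of all genes) and 11 lower (12.4%). Hlx (log2 difference -2.16), Irx3 (-2.29) and Pitx1 (-2.14) were lower in AID-JARID2, and Gbx2 (1.90) and Six2 (1.58) higher. Against untreated MTF2-AID, AID-JARID2 differed for 17, against 33.4% of all genes, and Hlx was again lower (-2.89). Of these, 5 were higher (15.8% of all genes) and 12 lower (17.6%). Untreated MTF2-AID differed from untreated SUZ12-AID for 10, against 8.65% of all genes, with Nkx1-2 the furthest apart (2.17, SE 0.19, adjusted p = 0.000341). Of these, 9 were higher in MTF2-AID (5.5% of all genes) and 1, Irx3, was lower (3.15%). All 10 genes that passed with auxin in both lines had untreated levels that differed between AID-JARID2 and SUZ12-AID. Besides Six2, Pitx1, Irx3 and Hlx these were Nkx2-3 (-1.76), Six5 (-0.67), Meis1 (-0.46), Prrx2 (-0.31), Otx1 (0.98) and Tgif1 (0.35). Prrx2 (adjusted p = 0.0522) and Tgif1 (adjusted p = 0.051) did not pass the F test over the 3 untreated lines. The auxin calls use the same untreated libraries, so they are not independent of these differences.

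A wider list of 100 homeobox and paired-box genes that are not in the set was counted for comparison, with 99 in the table and 47 tested. In SUZ12-AID 15 rose and 5 fell, against 15.1% and 4.05% of all genes (median log2 fold change 0.42). In MTF2-AID 0 passed in limma, against 0.0638% of all genes (median 0.11). There 13 were at an unadjusted p under 0.05, against 9.51% of all genes. In AID-JARID2 13 rose and 14 fell, against 19.5% and 17% of all genes (median -0.12). Among its genes that are in none of the marker lists, the largest changes that passed in SUZ12-AID were those of Esx1, a placental gene (4.16), Hopx, a modulator of heart muscle growth (1.79), and the liver and neuron gene Onecut2 (1.55). In AID-JARID2 they were the posterior genes Cdx4 (-3.97) and Cdx2 (-3.66), and the BMP-responsive gene Msx2 (-3.24).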

How the data were processed

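PolyA RNA of 12 libraries was sequenced from stranded dUTP libraries, per the labels' protocols. The authors deposited 1 table of TPM values. STAR 2.6.1d and mm10 are named in the submitters' processing notes; those sources name no program or annotation for TPM. Columns were matched to libraries by name. Whole reads were recovered from the TPM steps (100% of values above 0, within 0.001 reads) for depth and low genes only. The 15663 genes that reached 1 TPM in 2 or more libraries were fitted as log2(TPM + 1) in R 4.3.3 with limma 3.58.1 (functions lmFit, contrasts.fit and eBayes, trend on; 1 term per group, 6 residual degrees of freedom, two-sided, Benjamini-Hochberg, threshold 0.05). The script was tested on simulated data. Fold changes understate low genes. p-values measure only the spread between libraries, called biological replicates by the series.

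The 43 genes and the lists were chosen with earlier results of these data known. Values per library are given for genes that passed with at least 2-fold change and whose higher group averaged 5 TPM or more. Of the wider list, the 3 largest calls in SUZ12-AID and in AID-JARID2 in no other list are named. Positions are from GENCODE vM21. Alternatives were other pseudocounts, filters, scalings, weights, a replicate block, fits per line and leaving out each library.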

Additional observations from a re-analysis of the deposited data

Results flagged for a closer look

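The auxin effect differed between the 3 lines for 24 of 33 genes, by the moderated F test in limma adjusted over all genes. The adjusted p was 6.69e-07 for Six2, 4.93e-06 for Meis1, 3.96e-05 for Hlx, 4.11e-05 for Prrx2 and 5.87e-05 for Meis2. It was 0.000213 for Pitx1, 0.000222 for Meis3, 0.000738 for Nkx1-2, 0.000865 for Irx3, 0.000958 for Vax2 and 0.000963 for Alx4. For Gbx2 it was 0.00167, for Alx1 0.00183, for Irx1 0.00193, for Barx1 0.00196, for Tgif1 0.00229, for Pbx2 0.00234, for En1 0.00259, for Otx1 0.00318, for Irx4 0.00366 and for Irx2 0.00792. Six5 (0.0134), Pbx3 (0.0149) and Lmx1b (0.0407) were nearest the threshold.

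Pax7, below the filter, had auxin libraries above the untreated ones in SUZ12-AID and below them in AID-JARID2, where its mean was 0.0450 TPM with auxin and 0.461 TPM untreated. The order in SUZ12-AID rests on 2 and 4 reads with auxin and 2 and 1 reads untreated, too few to give a direction. AID-JARID2 had 1 and 2 reads with auxin and 10 and 14 reads untreated. With its filter, the main test left Pax7 out. When genes of any level were tested, the difference in auxin effect passed (AID-JARID2 minus SUZ12-AID -0.58 on the log2 scale, SE 0.12, adjusted p = 0.0138). Its log2 fold change was -0.48 in AID-JARID2 (adjusted p = 0.00387) and 0.10 in SUZ12-AID (adjusted p = 0.531).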

How the results depend on the processing

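Of the 37 calls that passed in SUZ12-AID or AID-JARID2, 21 held in each alternative in which the gene was tested (4 of them, Barx1, Alx1 and En1 in SUZ12-AID and Alx4 in AID-JARID2, were not tested with a filter of 5 TPM), 16 were lost in at least 1, and 0 reversed. In SUZ12-AID the 19 calls became 11 with a variance weight per line, 4 with the libraries of that line alone, and 13 to 20 with 1 library left out. The cause was not tested. In MTF2-AID 1 gene passed with a pseudocount of 5 TPM and 1 with a variance weight per line. In AID-JARID2 leaving out 1 library gave 17 to 19 calls. The difference between MTF2-AID and SUZ12-AID, 10 genes, was 6 with a variance weight per line and 6 to 12 with 1 library left out. Another pseudocount (0.1 or 5 TPM) moved 20 of the 37 log2 fold changes by over 1.5 times. A depth of 10138920 to 17173072 reads leaves the genes under 1 TPM with few reads each.

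A replicate block gave the same 19 calls in SUZ12-AID, 0 in MTF2-AID and 18 in AID-JARID2. The correlation of the deviations of same-numbered libraries was 0.0958 in SUZ12-AID, -0.0388 in MTF2-AID and 0.00803 in AID-JARID2. Same-numbered libraries thus shared no strong deviation, but this cannot tell whether they were handled together.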
